A study of Rattus norvegicus with 8 samples.

Results

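Chemokines are small secreted proteins that set the path of migrating leukocytes, and they act through receptors coupled to G proteins on the surface of those cells. Inflammatory chemokines are made on demand in injured or rejected tissue and call in monocytes, neutrophils and activated T cells, whereas homeostatic chemokines place lymphocytes and dendritic cells in lymphoid tissue. Atypical receptors bind chemokines without G protein signalling and remove them from the tissue. In grafted tissue this system governs which host leukocytes enter the graft.

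Transcripts of the system were examined by RNA-seq in peripheral nerve allografts (PNAs) of the rat sciatic nerve. All animals were outbred female Sprague Dawley rats aged 3 to 6 months. PEG-fused PNAs (PEG, n = 3 animals) had their cut ends joined to the host nerve by microsutures and a sequence of solutions that includes polyethylene glycol, a polymer that seals cut axons together. Negative control PNAs (NC, n = 3 animals) received the sutures and the other solutions but no polyethylene glycol. Both kinds of graft came from donors that were not tissue matched, were placed in hosts that received no immune suppression, and were excised at 14 days after the operation. Unoperated sciatic nerves (Unop, n = 2 animals) were the baseline. The tissue was whole nerve, so that fewer cells of a type and less RNA per cell cannot be told apart in any result.

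Members were taken by gene symbol: the numbered Ccl and Cxcl ligands, Cx3cl1, Xcl1, Pf4 and Ppbp, the numbered Ccr and Cxcr receptors, Cx3cr1, Xcr1 and the numbered Ackr atypical receptors. Of 32545 genes in the table, 56 carried such a symbol, and 52 of them had a normalized count of at least 10 in at least 2 of the 8 libraries. These 52 comprised 32 ligands, 17 receptors and 3 atypical receptors. Ccl25, Ccl26, Ccl28 and Ppbp fell under that filter and were not tested. Ccr2, the main receptor of Ccl2, Ccl7 and Ccl12, and Ackr1 were not analysed here. Values are normalized read counts, that is, reads per gene divided by a size factor of the library. Each log2 fold change is from limma on log2(normalized count + 1), given with its standard error (SE), and a gene was called when its Benjamini-Hochberg adjusted p over all 16478 genes tested was under 0.05. Counts of a gene are listed in the order of replicates 1, 2 and 3. Gene lengths were not used, so levels are compared between libraries of the same gene and never between genes.

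The promoters of the 3 interferon-inducible ligands of Cxcr3 are shown because these ligands moved together and lie side by side. In RefSeq (GRCr8), the starts of Cxcl11, Cxcl10 and Cxcl9 stand in this order on chromosome 14 within 33438 bases, all on the plus strand. Each line holds the 250 bases before the annotated start, 5′ to 3′, at chr14:16006916-16007165 for Cxcl9, chr14:15988816-15989065 for Cxcl10 and chr14:15973478-15973727 for Cxcl11. Capitals mark matches, on either strand, to an interferon-stimulated response element (ISRE, core GAAANNGAA), an interferon gamma activated sequence (GAS, TTCNNNGAA) or the NF-kB consensus.
Cxcl9: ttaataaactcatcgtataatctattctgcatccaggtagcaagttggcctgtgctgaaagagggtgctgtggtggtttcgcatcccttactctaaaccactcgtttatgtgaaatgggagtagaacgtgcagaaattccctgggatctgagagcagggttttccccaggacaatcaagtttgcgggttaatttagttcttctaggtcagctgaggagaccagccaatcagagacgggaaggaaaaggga
Cxcl10: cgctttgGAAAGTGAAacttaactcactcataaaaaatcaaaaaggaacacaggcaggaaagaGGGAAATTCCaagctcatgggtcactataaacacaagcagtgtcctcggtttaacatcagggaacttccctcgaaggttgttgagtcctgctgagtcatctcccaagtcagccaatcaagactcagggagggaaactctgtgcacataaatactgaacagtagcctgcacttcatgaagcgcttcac
Cxcl11: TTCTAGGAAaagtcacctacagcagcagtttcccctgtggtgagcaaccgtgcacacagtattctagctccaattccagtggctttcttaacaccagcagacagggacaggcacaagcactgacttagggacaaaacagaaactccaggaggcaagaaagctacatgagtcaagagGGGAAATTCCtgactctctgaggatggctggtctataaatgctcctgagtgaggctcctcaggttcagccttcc

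The Cxcl10 promoter held 1 ISRE match, beginning 243 bases before the start, and 1 NF-kB match nearer to it. The Cxcl11 promoter held 1 GAS match at 250 bases and 1 NF-kB match at 74 bases, and no match overlapped another. The Cxcl9 promoter held none of these letters in its 250 bases. Of 33465 RefSeq promoters of this length, 8.12% held an ISRE match, 7.67% a GAS match and 3.54% an NF-kB match. Promoters were listed for 38 of the 52 members. Of these 38, 2 held an ISRE match (Ccl19 and Cxcl10), 4 a GAS match (Ccl17, Ccl24, Ccr6 and Cxcl11) and 8 an NF-kB match (Ccl20, Ccl9, Ccr3, Cxcl1, Cxcl10, Cxcl11, Cxcl2 and Cxcl6). A match describes letters in the window and not a bound site.

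In PEG-fused compared to NC PNAs, 31 of the 52 genes were significantly lower, 2 were significantly higher and 19 were not called. Over all genes tested, 13.9% were called lower and 15.0% higher in this comparison. The 31 lower genes comprised 21 of 32 ligands and 10 of 17 receptors, and 1 of them, Ccl20, passed the filter on low counts through NC PNAs alone. The 2 higher genes were the ligand Pf4 and the atypical receptor Ackr4. The median log2 fold change was -1.70 over the 52 genes, -1.79 over the ligands and -1.76 over the receptors, beside 0.00 over all genes tested. In 36 genes every PEG-fused PNA lay below every NC PNA, and in 3 genes every PEG-fused PNA lay above. The share of all genes tested that separated in this way was not worked out, so these numbers are a description. Without NC 1 and NC 3, which contained high levels of skeletal muscle transcripts, 24 genes were called, all of them lower. That fit leaves NC 2 as the only NC library, which is assumed to vary like the libraries of the other groups.

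Compared to Unop nerves, 31 of the 52 genes were significantly higher in PEG-fused PNAs and 10 were lower, beside 29.1% and 28.6% of all genes tested. In NC PNAs, 39 were higher and 6 lower than in Unop nerves, beside 32.2% and 32.3% of all genes. The 31 genes include Cxcl2, which reached a count of 10 in PEG 2 and PEG 3 alone. The 39 genes include Ccl20, which reached it in NC PNAs alone. Both comparisons share the 2 Unop nerves. The mean was lowest in Unop nerves, intermediate in PEG-fused PNAs and highest in NC PNAs for 36 of the 52 genes, which were 22 ligands and 14 receptors. All 3 steps of this order passed the test for 20 genes. The shares of all genes tested with this order, or with all 3 steps called, were not worked out. The 20 genes included the ligands Ccl1, Ccl2, Ccl4, Ccl5, Ccl7, Ccl17, Ccl22, Cxcl9, Cxcl10, Cxcl11, Cxcl16 and Xcl1 and the receptors Ccr4, Ccr6, Ccr7, Ccr8, Cxcr3, Cxcr6 and Xcr1. Without 1 of the Unop nerves, PEG-fused PNAs were no longer called above Unop nerves for Ccl4, Ccl7, Ccl17, Ccl22 and Cxcr6 (adjusted p up to 0.0592, 0.0825, 0.0978, 0.0654 and 0.1).

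**Figure D1:**
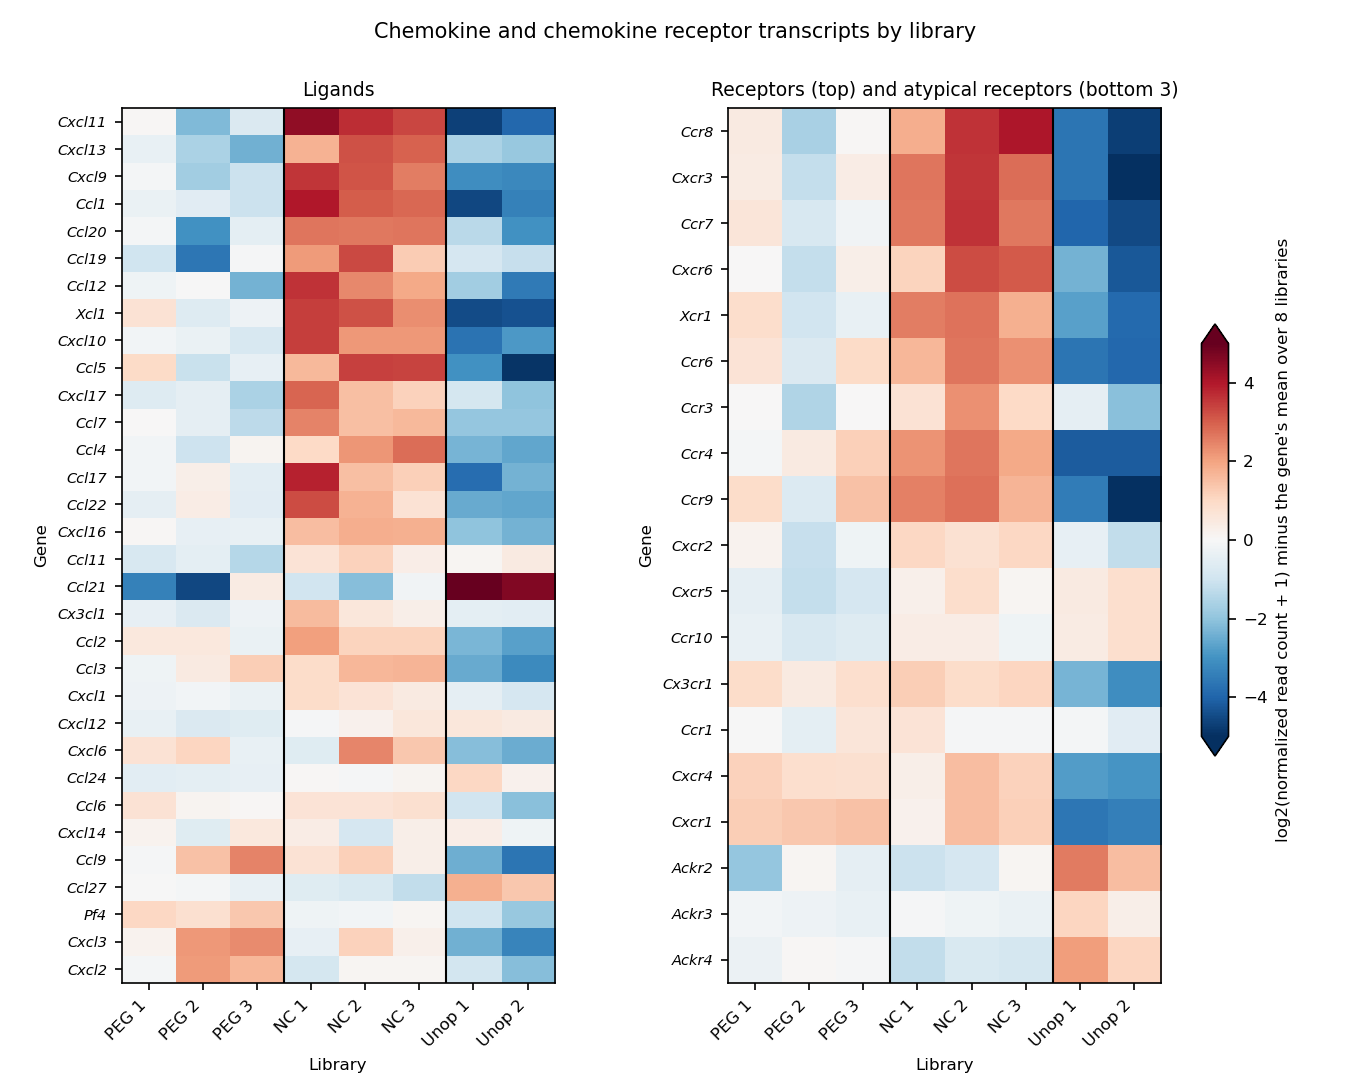
Colour gives log2(normalized read count + 1) of 51 of the 52 genes (rows) in each of the 8 libraries (columns), minus the gene's mean over the libraries; ligands are on the left, receptors and atypical receptors on the right, ordered within each role by the log2 fold change of PEG-fused against NC PNAs. The 3 NC columns are red for most genes, the 2 Unop columns blue, and the 3 PEG columns lie between; Ccl21, Ccl27 and the 3 Ackr genes are reddest in Unop nerves, and Pf4, Cxcl2 and Cxcl3 in PEG-fused PNAs.

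Cxcr3 is carried by activated T cells and natural killer cells and is drawn by Cxcl9, Cxcl10 and Cxcl11, which cells make in response to interferon gamma. Levels of all 3 ligands and of the receptor were significantly below those of NC PNAs in the PEG-fused group, and all 4 significantly exceeded the Unop nerves in PEG-fused PNAs. Cxcl9 had normalized counts of 3947, 1254 and 1970.0 in PEG-fused PNAs, 49817, 37081 and 24509 in NC PNAs and 481 and 445 in Unop nerves. The NC mean was 15.5 times the PEG mean (log2 fold change -4.06 ± 0.40 (SE), adjusted p = 0.000631). Cxcl10 counted 2700.0, 2368 and 1695 in PEG-fused PNAs, 32729, 13214 and 13137 in NC PNAs and 229.7 and 401 in Unop nerves. NC 1 stood well above the other NC PNAs for Cxcl10, yet the lowest NC value exceeded the highest PEG value (log2 fold change -3.01 ± 0.38, adjusted p = 0.00135). Cxcl11 counted 569, 118 and 326 in PEG-fused PNAs, 11889, 7157 and 5481 in NC PNAs and 20.4 and 35.0 in Unop nerves. Its log2 fold change of -4.79 ± 0.54 (adjusted p = 0.000979) was the most negative among the 52 genes. Cxcr3 counted 627, 201 and 599 in PEG-fused PNAs, 2957, 5584 and 3261 in NC PNAs and 36.5 and 13.8 in Unop nerves (log2 fold change -3.16 ± 0.51, adjusted p = 0.00337). The highest Cxcr3 count in NC PNAs was in NC 2, whereas all 3 ligands were highest in NC 1. Relative to Unop nerves, PEG-fused PNAs were higher by 2.20 ± 0.45 for Cxcl9, 2.86 ± 0.42 for Cxcl10, 3.34 ± 0.61 for Cxcl11 and 4.17 ± 0.57 for Cxcr3 in log2 fold change (adjusted p from 0.000371 to 0.00303).

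Ccl3, Ccl4 and Ccl5 attract activated T cells and macrophages, and Ccl4 and Ccl5 were called lower in PEG-fused than in NC PNAs. Ccl5, which T cells release, counted 706, 167 and 276 in PEG-fused PNAs, 1124, 3904 and 3827 in NC PNAs and 44.0 and 11.3 in Unop nerves (log2 fold change -3.00 ± 0.71, adjusted p = 0.0156). NC 1 was the lowest NC PNA for Ccl5 and PEG 1 the highest PEG-fused PNA, and the call was lost without PEG 2, PEG 3 or NC 3 (adjusted p up to 0.0606). Ccl4 counted 116, 60.8 and 139.8 in PEG-fused PNAs, 253, 587 and 887 in NC PNAs and 24.7 and 20.0 in Unop nerves, with no overlap between grafts (log2 fold change -2.34 ± 0.47, adjusted p = 0.00825). Ccl3 counted 107, 167 and 292 in PEG-fused PNAs, 233, 392 and 396 in NC PNAs and 20.4 and 12.5 in Unop nerves. The ranges of the grafts overlapped for Ccl3 and the difference was not called (log2 fold change -0.93 ± 0.39, adjusted p = 0.111), although it was called without PEG 3, the PEG-fused PNA with the highest count (adjusted p = 0.0432). Ccl3 was higher than in Unop nerves in PEG-fused PNAs (log2 fold change 3.36 ± 0.44, adjusted p = 0.000285) and in NC PNAs (4.29 ± 0.44, adjusted p = 5.18e-05).

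Cxcr6 is found on effector and resident memory T cells, and Cxcl16 is its only known ligand. Cxcl16 counted 4305, 3096 and 3203 in PEG-fused PNAs, 12079, 14535 and 14316 in NC PNAs and 1038 and 800.5 in Unop nerves, with the groups fully apart (log2 fold change -1.96 ± 0.16, adjusted p = 0.000401). Cxcr6 counted 189, 80.4 and 228 in PEG-fused PNAs, 403, 1764 and 1567 in NC PNAs and 35.4 and 8.76 in Unop nerves. Its values in NC 2 and NC 3 far exceeded that in NC 1, and the log2 fold change was -2.77 ± 0.70 (adjusted p = 0.0205). Against Unop nerves, Cxcl16 was higher by 1.94 ± 0.17 in PEG-fused and 3.90 ± 0.17 in NC PNAs in log2 fold change (adjusted p = 3.71e-05 and 9.88e-07). Without PEG 2, NC 2 or NC 3 the Cxcr6 call was lost (adjusted p up to 0.0763).

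**Figure D2:**
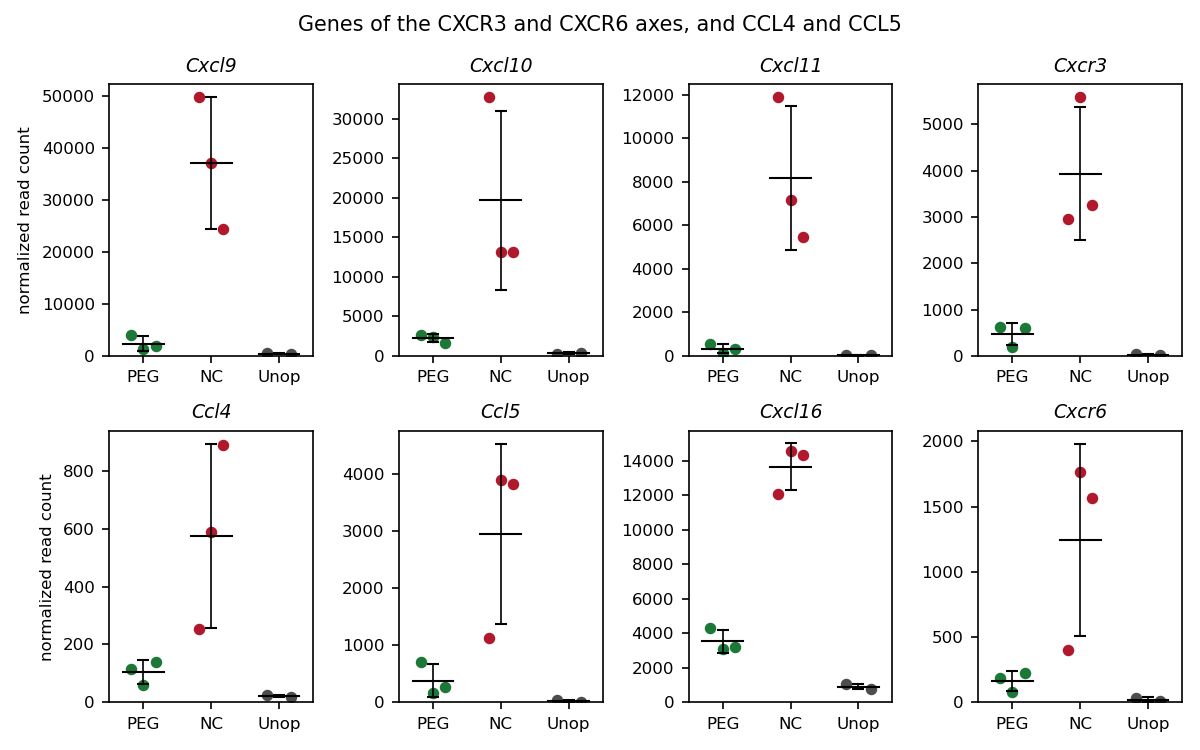
Normalized read counts (vertical axes, from 0) of the Cxcr3 and Cxcr6 axes and of Ccl4 and Ccl5 (8 genes) in PEG-fused PNAs (n = 3), NC PNAs (n = 3) and Unop nerves (n = 2); points are libraries, horizontal lines group means and bars the SD. In each panel every NC point lies above every PEG point and every PEG point above every Unop point; the NC values of Cxcl16 lie close together, and those of Cxcl10 and Ccl5 spread widely.

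Ccl2, Ccl7 and Ccl12 attract monocytes and were all significantly lower in PEG-fused than in NC PNAs. Ccl2 counted 3112, 3149.6 and 1701 in PEG-fused PNAs, 8861, 4702 and 4731 in NC PNAs and 449 and 328 in Unop nerves (log2 fold change -1.19 ± 0.31, adjusted p = 0.0243). Without PEG 3, the library with the lowest Ccl2 count among PEG-fused PNAs, the adjusted p was 0.0685. Ccl7 counted 1232, 872 and 485 in PEG-fused PNAs, 6783, 3424 and 3647 in NC PNAs and 312 and 313 in Unop nerves (log2 fold change -2.45 ± 0.36, adjusted p = 0.00227). Ccl12 counted 133, 153 and 29.1 in PEG-fused PNAs, 1926, 818 and 575 in NC PNAs and 46.1 and 12.5 in Unop nerves (log2 fold change -3.50 ± 0.74, adjusted p = 0.0103). PEG 3 was the lowest of the PEG-fused PNAs for all 3 genes, and NC 1 the highest of the NC PNAs. PEG-fused PNAs still exceeded Unop nerves in Ccl2 (log2 fold change 2.73 ± 0.35, adjusted p = 0.000263) and in Ccl7 (1.36 ± 0.40, adjusted p = 0.0178), the latter call being lost without either Unop nerve (adjusted p up to 0.0825). Ccl12 did not pass that test (1.76 ± 0.83, adjusted p = 0.102), although it did in 2 alternatives, among them the fit without PEG 3 (adjusted p as low as 0.00954).

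Ccr1 and its rodent ligands Ccl6 and Ccl9 were not called between grafts. Ccl6 counted 8507, 5677 and 5291 in PEG-fused PNAs, 8221, 8336 and 8904 in NC PNAs and 2630.4 and 1201 in Unop nerves (log2 fold change between grafts -0.42 ± 0.28, adjusted p = 0.295, 95% interval -1.06 to 0.22). Ccl9 counted 651, 1876 and 3789.8 in PEG-fused PNAs, 1126, 1544 and 840.2 in NC PNAs and 123 and 53.8 in Unop nerves. The Ccl9 count in PEG 3 was above all other libraries and that in PEG 1 below all NC PNAs, and the difference was not called (95% interval -0.82 to 1.93, adjusted p = 0.521). Both ligands were higher than in Unop nerves, Ccl6 by 1.84 ± 0.31 in PEG-fused PNAs (adjusted p = 0.00123) and Ccl9 by 4.34 ± 0.67 (adjusted p = 0.000725). Ccr1 counted 639.5, 467 and 983 in PEG-fused PNAs, 1037, 621 and 622 in NC PNAs and 604 and 439 in Unop nerves and was called in none of the 3 comparisons, the smallest adjusted p being 0.209 for NC PNAs against Unop nerves.

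In some pairs the ligand passed the test between grafts and the receptor did not, and the difference between the change of a ligand and that of its receptor was not itself tested. Cx3cl1, the membrane-bound ligand known as fractalkine, counted 258, 208 and 292 in PEG-fused PNAs, 1021, 513 and 421 in NC PNAs and 243 and 238 in Unop nerves (log2 fold change -1.27 ± 0.30, adjusted p = 0.0166, lost without PEG 2 at an adjusted p of 0.0651). Its PEG values overlapped those of Unop nerves. Cx3cr1, a receptor of monocytes and tissue macrophages, counted 932, 670.3 and 894 in PEG-fused PNAs, 1163, 936 and 1041 in NC PNAs and 97.7 and 56.3 in Unop nerves. Every graft exceeded both Unop nerves for Cx3cr1 (log2 fold change 3.46 ± 0.24 in PEG-fused and 3.80 ± 0.24 in NC PNAs, adjusted p = 1.07e-05 and 4.27e-06). No PEG-fused PNA reached an NC value for Cx3cr1, and the difference between grafts was not called (log2 fold change -0.34 ± 0.22, 95% interval -0.84 to 0.16, adjusted p = 0.274).

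Cxcl12, which stromal cells secrete and which retains Cxcr4-bearing leukocytes, was significantly lower in the PEG-fused group than in both others. Cxcl12 counted 2510.0, 2002 and 2137 in PEG-fused PNAs, 3130.3, 3756 and 4867 in NC PNAs and 4777 and 4435 in Unop nerves. The log2 fold change was -0.80 ± 0.16 against NC PNAs (adjusted p = 0.0078) and -1.06 ± 0.18 against Unop nerves (adjusted p = 0.00115), and NC PNAs and Unop nerves were not called different (adjusted p = 0.236; without NC 3, the highest NC PNA, 0.0352). Its receptor Cxcr4 counted 5358, 4328 and 4201 in PEG-fused PNAs, 2941, 7127 and 5311 in NC PNAs and 343 and 309 in Unop nerves, a difference between grafts of -0.06 ± 0.28 (95% interval -0.71 to 0.58, adjusted p = 0.889). Cxcr4 was higher than in Unop nerves in both grafts (log2 fold change 3.82 ± 0.31 in PEG-fused and 3.88 ± 0.31 in NC PNAs, adjusted p = 2.34e-05 and 1.42e-05). Ackr3, which takes up Cxcl12, counted 3208, 2967 and 2723 in PEG-fused PNAs, 3389, 3082 and 2836 in NC PNAs and 7380.4 and 4346 in Unop nerves. It was lower than in Unop nerves in PEG-fused (log2 fold change -0.94 ± 0.20, adjusted p = 0.00416) and NC PNAs (-0.87 ± 0.20, adjusted p = 0.00512), and between grafts its adjusted p was 0.82.

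Ccr7 guides dendritic cells and naive T cells toward Ccl19 and Ccl21, the chemokines of lymphoid tissue and lymphatic vessels, and Ackr4 scavenges both ligands. Ccr7 counted 247, 92.6 and 144 in PEG-fused PNAs, 1016, 2033 and 1029 in NC PNAs and 9.66 and 6.25 in Unop nerves, with the 3 groups apart (log2 fold change -3.10 ± 0.40, adjusted p = 0.0015; 7.19 ± 0.45, adjusted p = 3.86e-06 for NC PNAs against Unop nerves). Ccl19 counted 51.9, 7.48 and 99.4 in PEG-fused PNAs, 456, 1036 and 249 in NC PNAs and 56.9 and 46.3 in Unop nerves. Its level in PEG-fused PNAs was below that in every NC PNA (log2 fold change -3.79 ± 0.87, adjusted p = 0.0139) and overlapped the Unop values. Ccl21, unlike Ccr7, was highest in Unop nerves, with counts of 20.4, 8.41 and 295 in PEG-fused PNAs, 113, 49.5 and 197 in NC PNAs and 15435 and 5393 in Unop nerves. Relative to Unop nerves, the log2 fold change of Ccl21 was -7.87 ± 1.30 in PEG-fused PNAs (adjusted p = 0.00105) and -6.45 ± 1.30 in NC PNAs (adjusted p = 0.00252). PEG 3 stood apart, with a count that exceeded all NC PNAs while PEG 1 and PEG 2 lay below them. Between grafts Ccl21 was not called (log2 fold change -1.42 ± 1.16, adjusted p = 0.392), but it was called without PEG 3 (adjusted p = 0.0268). Ackr4 counted 219, 283 and 256 in PEG-fused PNAs, 113, 159 and 147 in NC PNAs and 1154 and 569 in Unop nerves, higher in every PEG-fused than in every NC PNA and lower in both than in Unop nerves. The log2 fold change between grafts was 0.86 ± 0.26 (adjusted p = 0.0425), a call lost in 8 of the alternatives, among them the removal of any single PEG-fused or NC library (adjusted p up to 0.134). Against Unop nerves Ackr4 was lower in PEG-fused (log2 fold change -1.69 ± 0.29, adjusted p = 0.00141) and in NC PNAs (-2.54 ± 0.29, adjusted p = 0.000109).

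Cxcl13 forms B cell follicles by drawing cells that carry Cxcr5. Cxcl13 counted 1461, 618 and 352 in PEG-fused PNAs, 6178, 16983 and 14416 in NC PNAs and 618 and 504 in Unop nerves, and the NC mean was 15.5 times the PEG mean (log2 fold change -4.07 ± 0.53, adjusted p = 0.0015). PEG-fused PNAs overlapped Unop nerves, with a log2 fold change of 0.29 ± 0.59 (95% interval -1.06 to 1.64, adjusted p = 0.696). Cxcr5 counted 50.1, 29.0 and 37.5 in PEG-fused PNAs, 80.4, 126 and 72.3 in NC PNAs and 92.3 and 124 in Unop nerves. Cxcr5 was reduced in PEG-fused PNAs against NC PNAs (log2 fold change -1.23 ± 0.30, adjusted p = 0.0175, lost without PEG 2 or PEG 3 at an adjusted p up to 0.0657) and against Unop nerves (-1.47 ± 0.33, adjusted p = 0.00539).

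Among genes of neutrophil attraction, Cxcr2 and Cxcl1 were called lower in PEG-fused PNAs, whereas Cxcl3 was not called between grafts. Cxcr2, the receptor these ligands share, counted 25.0, 9.35 and 18.8 in PEG-fused PNAs, 45.6, 37.7 and 46.3 in NC PNAs and 16.1 and 8.76 in Unop nerves and was lower in PEG-fused than in NC PNAs (log2 fold change -1.33 ± 0.40, adjusted p = 0.0396). This call was lost without a filter on low counts and without PEG 2, PEG 3 or any NC library (adjusted p up to 0.116). Cxcl1 counted 51.9, 57.0 and 49.7 in PEG-fused PNAs, 118, 101 and 84.9 in NC PNAs and 45.1 and 35.0 in Unop nerves and was also lower (log2 fold change -0.91 ± 0.22, adjusted p = 0.0158; without PEG 3, adjusted p = 0.0565). In contrast, Cxcl2 counted 8.34, 43.0 and 30.0 in PEG-fused PNAs, 4.47, 9.68 and 9.65 in NC PNAs and 4.29 and 1.25 in Unop nerves, and Cxcl3 counted 24.1, 101 and 115 in PEG-fused PNAs, 16.1, 48.4 and 26.0 in NC PNAs and 3.22 and 1.25 in Unop nerves. PEG 2 and PEG 3 were the highest libraries for both, and PEG 1 lay within the NC range. Cxcl2 reached a count of 10 in PEG 2 and PEG 3 alone and so passed the filter through the group in which it was high. Its values are given as a description with no test. Cxcl3 was not called between grafts (log2 fold change 1.24 ± 0.65, adjusted p = 0.191). Cxcl3 was called higher without PEG 1 (adjusted p = 0.0382). Cxcl6 counted 76.0, 99.1 and 35.6 in PEG-fused PNAs, 29.5, 253 and 119 in NC PNAs and 9.66 and 7.50 in Unop nerves and was not called between grafts (adjusted p = 0.59). Cxcr1, a second neutrophil receptor, counted 242, 263 and 280.5 in PEG-fused PNAs, 117, 301 and 235 in NC PNAs and 7.51 and 8.76 in Unop nerves, higher in each graft than in either Unop nerve (log2 fold change 4.85 ± 0.36 in PEG-fused and 4.48 ± 0.36 in NC PNAs, adjusted p = 1.46e-05 and 1.44e-05) and not called between grafts (95% interval -0.38 to 1.11).

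Ccr4 and Ccr8 are found on type 2 helper and regulatory T cells. Ccr4 had no read in either Unop nerve and counted 15.8, 23.4 and 40.3 in PEG-fused and 84.9, 113 and 66.6 in NC PNAs. Against a floor of 3 reads per library, the PEG mean of Ccr4 was at least 7.60-fold higher and the NC mean at least 25.3-fold higher. Between grafts its log2 fold change was -1.76 ± 0.40 (adjusted p = 0.0128). Its ligands Ccl17 and Ccl22, products of dendritic cells and macrophages, peaked in NC 1. Ccl17 counted 79.7, 105.6 and 60.0 in PEG-fused PNAs, 1256, 251 and 199 in NC PNAs and 5.37 and 16.3 in Unop nerves (log2 fold change -2.30 ± 0.69, adjusted p = 0.0379), and Ccl22 counted 171, 294 and 155 in PEG-fused PNAs, 2197, 773 and 385 in NC PNAs and 39.7 and 37.5 in Unop nerves (-2.13 ± 0.56, adjusted p = 0.0237). The Ccl17 call was lost in 5 alternatives, among them the removal of any PEG-fused library (adjusted p up to 0.11), and the Ccl22 call without PEG 1 or PEG 3 (up to 0.0767). Ccl1, the ligand of Ccr8, counted 17.6, 15.0 and 10.3 in PEG-fused PNAs, 375, 191 and 174 in NC PNAs and 0 and 1.25 in Unop nerves, a log2 fold change of -3.96 ± 0.44 (adjusted p = 0.000906), and the Unop nerves held 1 read. Ccr8 counted 35.2, 7.48 and 26.3 in PEG-fused PNAs, 92.0, 319.5 and 438 in NC PNAs and 1.07 and 0 in Unop nerves (log2 fold change -3.54 ± 0.72, adjusted p = 0.00872). For both genes every NC PNA exceeded every PEG-fused PNA.

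Ccl20 and its receptor Ccr6, which is carried by type 17 helper T cells and B cells, had higher counts in every NC PNA than in any PEG-fused PNA. Ccl20 counted 6.49, 0 and 4.69 in PEG-fused PNAs, 50.04, 49.5 and 50.2 in NC PNAs and 2.15 and 0 in Unop nerves. It reached a count of 10 in NC PNAs alone and so passed the filter through the group in which it was high, and its values are given as a description with no test. Ccr6 counted 84.3, 30.9 and 101 in PEG-fused PNAs, 165, 332 and 256 in NC PNAs and 3.22 and 2.50 in Unop nerves (log2 fold change -1.89 ± 0.46, adjusted p = 0.0176, lost without NC 2 or NC 3 at an adjusted p up to 0.0525). Xcl1, released by cytotoxic and natural killer cells, counted 117, 43.9 and 59.1 in PEG-fused PNAs, 781, 641 and 357 in NC PNAs and 2.15 and 2.50 in Unop nerves (log2 fold change -3.05 ± 0.41, adjusted p = 0.00172). Its receptor Xcr1, a marker of cross-presenting dendritic cells, counted 429, 119.7 and 183 in PEG-fused PNAs, 1375, 1543 and 813 in NC PNAs and 35.4 and 15.0 in Unop nerves (log2 fold change -2.50 ± 0.50, adjusted p = 0.00798). Both Xcl1 and Xcr1 had non-overlapping groups, with Unop nerves lowest (log2 fold change of NC PNAs against Unop nerves 7.41 ± 0.46, adjusted p = 3.66e-06 for Xcl1 and 5.64 ± 0.56, adjusted p = 4.38e-05 for Xcr1). Xcl1 had only 2 reads in each Unop nerve, and this log2 fold change ran from 5.79 to 8.00 for Xcl1 over the alternatives.

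Ccl11 and Ccl24 attract eosinophils through Ccr3. Ccl11 counted 237, 297 and 156 in PEG-fused PNAs, 664, 938 and 528 in NC PNAs and 449 and 572 in Unop nerves, lower in every PEG-fused PNA than in any other library (log2 fold change -1.63 ± 0.28, adjusted p = 0.00434 against NC PNAs and -1.18 ± 0.31, adjusted p = 0.011 against Unop nerves, the latter lost without Unop 2 at an adjusted p of 0.0836). Ccl24 counted 449.5, 468 and 487 in PEG-fused PNAs, 685, 625 and 714 in NC PNAs and 1347 and 755 in Unop nerves. It was lower than in Unop nerves in PEG-fused PNAs (log2 fold change -1.11 ± 0.21, adjusted p = 0.00242), and although no PEG-fused PNA reached an NC value, the difference between grafts was not called (log2 fold change -0.52 ± 0.19, adjusted p = 0.0731). Leaving out either Unop nerve, fitting the grafts alone or using DESeq2 gave a call for Ccl24 (adjusted p as low as 0.0078). Ccr3 counted 69.5, 23.4 and 68.5 in PEG-fused PNAs, 113, 333 and 137 in NC PNAs and 49.4 and 15.0 in Unop nerves and was not called between grafts by limma (log2 fold change -1.82 ± 0.61, adjusted p = 0.0565), whereas edgeR, DESeq2 and a pseudocount of 8 called it lower (adjusted p as low as 0.00701). The gut-homing receptor Ccr9 counted 65.8, 21.5 and 97.6 in PEG-fused PNAs, 205, 241 and 115 in NC PNAs and 2.15 and 0 in Unop nerves and was likewise not called between grafts (log2 fold change -1.76 ± 0.63, adjusted p = 0.0699), although DESeq2 and a pseudocount of 8 called it (adjusted p as low as 0.0123). The skin chemokine Ccl27 and its receptor Ccr10 were highest in Unop nerves. Ccl27 counted 41.7, 39.3 and 32.8 in PEG-fused PNAs, 27.7, 24.7 and 17.4 in NC PNAs and 147 and 108.8 in Unop nerves, and Ccr10 counted 21.3, 15.9 and 17.8 in PEG-fused PNAs, 36.6, 36.6 and 24.1 in NC PNAs and 37.6 and 51.3 in Unop nerves. Ccl27 was lower than in Unop nerves in PEG-fused (log2 fold change -1.72 ± 0.30, adjusted p = 0.00129) and NC PNAs (-2.42 ± 0.30, adjusted p = 0.000146). Neither gene was called between grafts (adjusted p = 0.0808 and 0.0762). No PEG-fused PNA reached an NC value for Ccr3, Ccr9 or Ccr10, and every PEG-fused PNA exceeded every NC PNA for Ccl27.

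**Figure D3:**
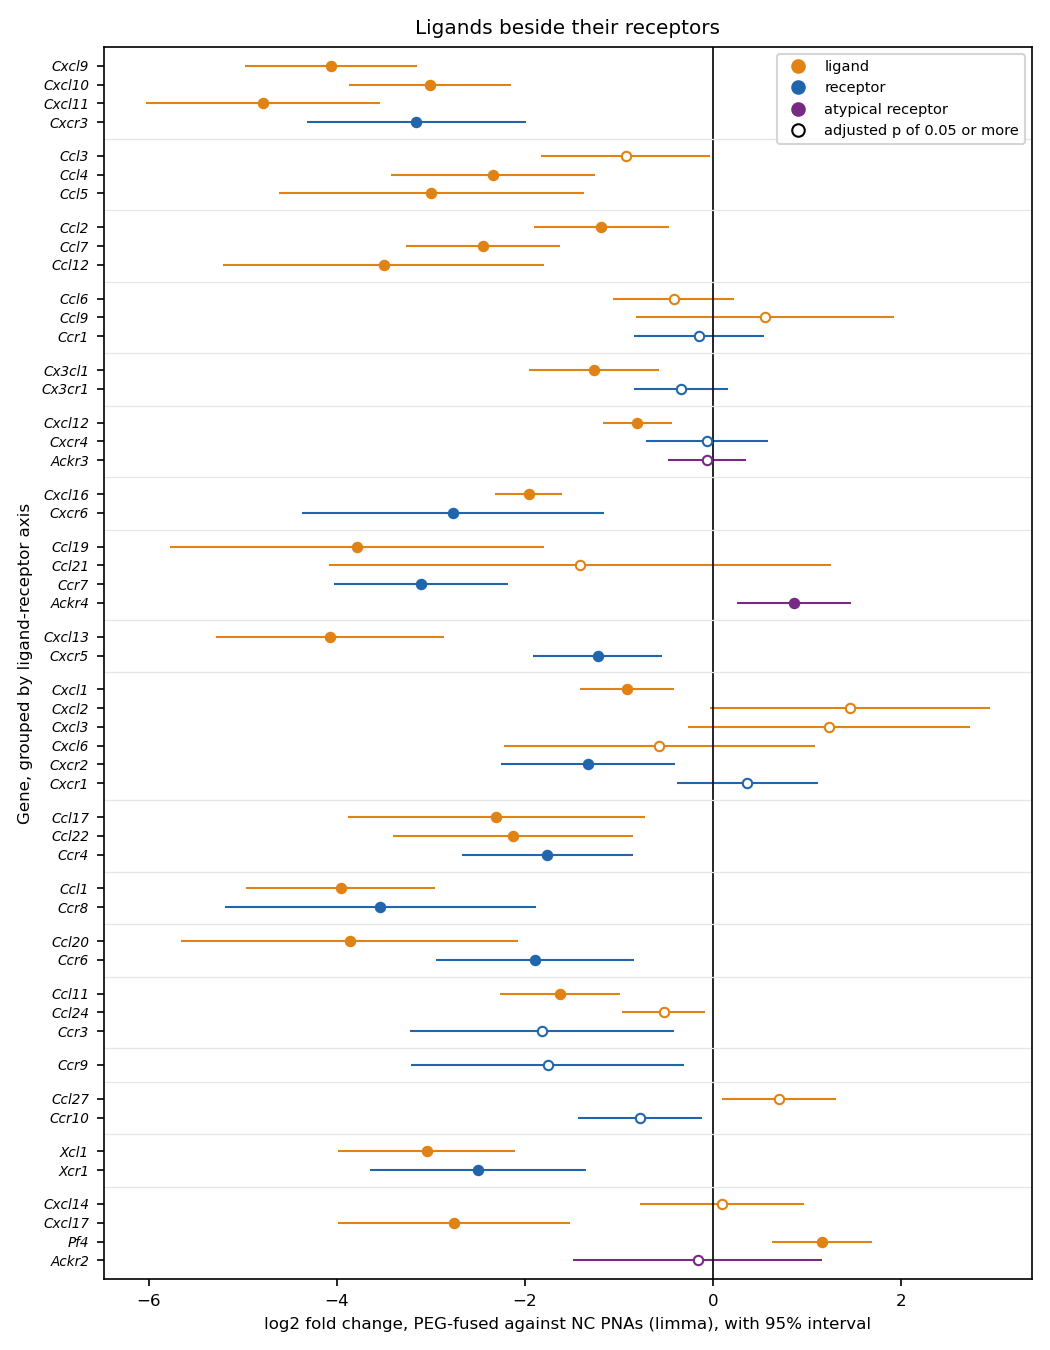
Points give the limma log2 fold change of PEG-fused against NC PNAs (horizontal axis) for 51 of the 52 genes, grouped by ligand-receptor axis, with 95% intervals; ligands are orange, receptors blue and atypical receptors purple, and open points have an adjusted p of 0.05 or more. Ligands and receptors lie left of 0 together for Cxcr3, Cxcr6, Ccr4, Ccr8 and Xcr1. Cxcl12 and Cx3cl1 are filled points left of 0, whereas Cxcr4 (-0.06) and Cx3cr1 (-0.34) are open points. Pf4 and Ackr4 are the filled points to the right. Ccl20 and Cxcl2 are drawn as well, although Ccl20 passed the filter through NC PNAs alone and Cxcl2 through PEG 2 and PEG 3 alone.

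Pf4, platelet factor 4, is stored in platelets and is also made by some macrophages, and it was the only ligand called higher in PEG-fused than in NC PNAs. Pf4 counted 4769, 4045 and 5879.8 in PEG-fused PNAs, 1965, 2077 and 2479 in NC PNAs and 1152 and 615 in Unop nerves. The PEG mean was 2.25 times the NC mean (log2 fold change 1.16 ± 0.23 (SE), adjusted p = 0.00794), and the 3 groups did not overlap. Pf4 was not called in the fit without NC 1 and NC 3, which leaves NC 2 as the only NC library. Pf4 was also higher than in Unop nerves in PEG-fused (2.52 ± 0.26, adjusted p = 7.59e-05) and NC PNAs (1.36 ± 0.26, adjusted p = 0.00185). The platelet genes Itga2b and Gp9 were called lower in PEG-fused than in NC PNAs, and Gp1ba was not called. Ppbp, the other platelet chemokine, stayed below the filter. Gp9 had low counts, at 4.63, 4.67 and 5.63 in PEG-fused and 11.6, 11.8 and 9.65 in NC PNAs. Gp1ba was low as well, at 2.78, 4.67 and 11.3 in PEG-fused and 10.7, 7.53 and 2.89 in NC PNAs. The part of platelets or macrophages in the Pf4 difference was not tested. Cxcl17, a mucosal chemokine, counted 24.1, 28.0 and 12.2 in PEG-fused PNAs, 295, 111 and 87.8 in NC PNAs and 20.4 and 8.76 in Unop nerves and was lower in PEG-fused PNAs (log2 fold change -2.75 ± 0.54, adjusted p = 0.00735). Cxcl14, a chemokine of resting epithelium and stroma, counted 1382, 811 and 1792 in PEG-fused PNAs, 1581, 688 and 1517 in NC PNAs and 1551 and 1072 in Unop nerves and was called in none of the comparisons. Ackr2, which degrades inflammatory CC chemokines, counted 7.42, 33.7 and 22.5 in PEG-fused PNAs, 14.3, 17.2 and 33.8 in NC PNAs and 195 and 93.8 in Unop nerves. It was lower than in Unop nerves in PEG-fused (log2 fold change -2.84 ± 0.65, adjusted p = 0.00543) and NC PNAs (-2.68 ± 0.65, adjusted p = 0.00635). Both Ackr2 calls were lost without Unop 1 (adjusted p up to 0.0556 and 0.0635). Ackr2, Ackr3 and Ackr4 were thus each called lower than Unop nerves in both kinds of graft.

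**Figure D4:**
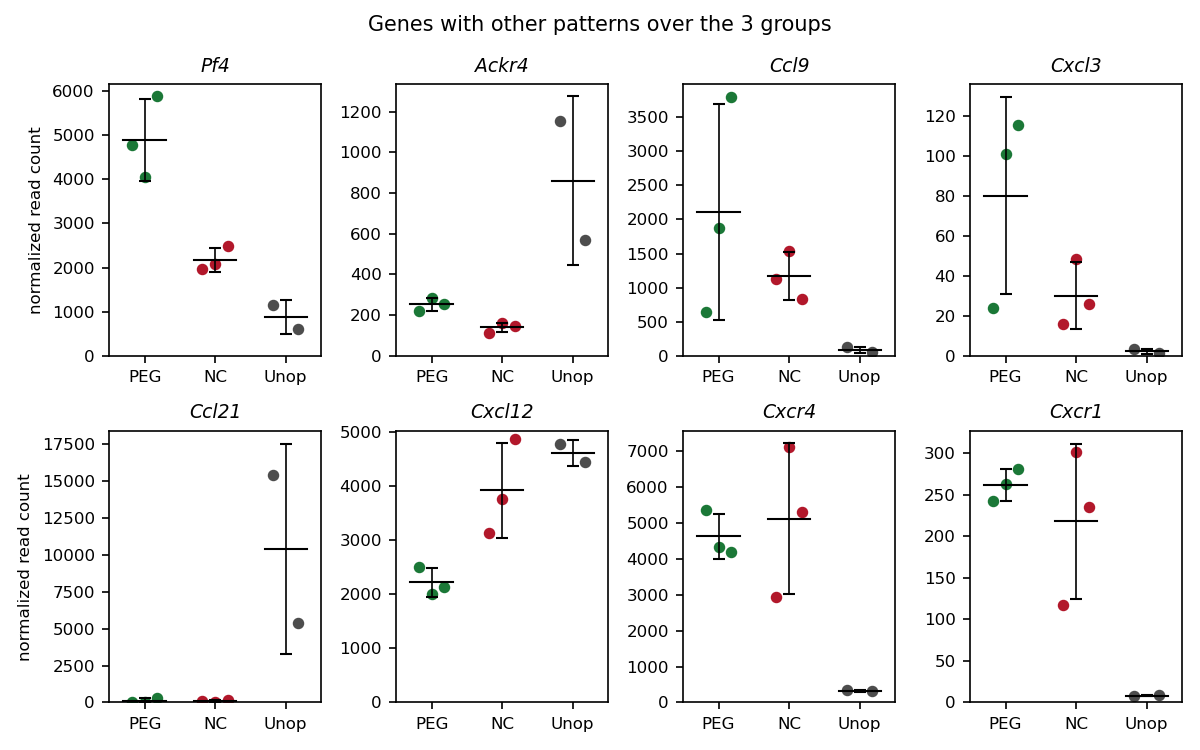
Normalized read counts (vertical axes, from 0) of 8 genes in PEG-fused PNAs (n = 3), NC PNAs (n = 3) and Unop nerves (n = 2); points are libraries, horizontal lines group means and bars the SD. Pf4 is highest in all 3 PEG-fused PNAs, Ackr4 and Ccl21 are highest in Unop nerves, Cxcl12 is lowest in PEG-fused PNAs, Cxcl3 and Ccl9 spread widely among PEG-fused PNAs, and Cxcr4 and Cxcr1 overlap between grafts.

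Among NC PNAs, the library with the highest count was often not the same for ligands and for receptors called lower in PEG-fused PNAs. Of the 21 ligands lower in PEG-fused PNAs, 13 had their highest NC count in NC 1, among them Cxcl9, Cxcl10, Cxcl11, Ccl2, Ccl7, Ccl17 and Ccl22. None of the 10 receptors lower in PEG-fused PNAs was highest in NC 1, and 7 were highest in NC 2. Of the receptors not called between grafts, Ccr1, Cx3cr1 and, by a small margin, Ccr10 were highest in NC 1. Ccr3, Ccr9, Cxcr1 and Cxcr4 were highest in NC 2. The share of all genes tested that was highest in each NC library was not worked out. T cell markers summed to 16164, 32208 and 20082 normalized counts in NC 1, NC 2 and NC 3, so that NC 1 held the lowest sum. Skeletal muscle markers summed to 366669, 6638 and 135159.7 in the same order. Among PEG-fused PNAs, PEG 2 had the lowest count for 8 of the 10 receptors and the lowest T cell marker sum (3510.1, 1141 and 3121 in PEG 1, PEG 2 and PEG 3). The part of these differences in tissue content in the chemokine results was not tested.

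Marker genes of leukocytes and of nerve tissue were examined beside the chemokine genes. Over all genes tested, 13.9% were called lower and 15.0% higher in PEG-fused than in NC PNAs. Against Unop nerves, 28.6% were called lower and 29.1% higher in PEG-fused PNAs, and 32.3% lower and 32.2% higher in NC PNAs. All 7 T cell markers were called lower in PEG-fused than in NC PNAs and higher in both grafts than in Unop nerves, where they summed to 319.8 and 170.1. Of 8 macrophage markers, 6 were called lower in PEG-fused PNAs (Adgre1, Aif1, Csf1r, C1qa, Cd14 and C1qb), with sums of 105615, 89166 and 99121 beside 136902, 154952 and 159656 in NC PNAs and 25737 and 15507 in Unop nerves. The other two were not called. Of these, Cd68 counted 20030.0, 20455 and 22451 in PEG-fused PNAs, 14060.1, 18968 and 16383 in NC PNAs and 1529 and 787 in Unop nerves, so that every PEG-fused PNA exceeded every NC PNA (log2 fold change 0.36 ± 0.22, adjusted p = 0.264), and Itgam overlapped between grafts (log2 fold change -0.37 ± 0.21, adjusted p = 0.214). All 3 B cell markers were lower, with sums of 54.7, 21.5 and 48.8 beside 204, 426 and 219 in NC PNAs and 26.8 and 7.50 in Unop nerves. Of 4 neutrophil markers tested, Csf3r and Mpo were lower, whereas S100a8 and S100a9 were not called and overlapped between grafts. Mpo had low counts in grafts, at 0, 0 and 4.69 in PEG-fused and 16.1, 6.45 and 10.6 in NC PNAs. The neutrophil sums were 1052, 696 and 744 in PEG-fused and 1311, 1908 and 1904 in NC PNAs. Most of each sum was Csf3r, at 970, 656 and 654 in PEG-fused and 1248, 1829 and 1811 in NC PNAs. Of 4 dendritic cell markers, Clec9a and Xcr1 itself were lower. None of 4 endothelial markers was called between grafts. Relative to Unop nerves, where Ccl21, Ackr2, Ackr3 and Ackr4 were highest, Vwf, Tek and Emcn were called lower in PEG-fused PNAs and all 4 markers in NC PNAs. The endothelial sums were 11233, 8365 and 9799 in PEG-fused PNAs, 8696, 6650.4 and 9655 in NC PNAs and 17864 and 16307 in Unop nerves. Between grafts, 3 of 5 fibroblast and 3 of 5 Schwann cell markers were higher in PEG-fused PNAs. Schwann cell markers were present in every library and summed to 1335313 and 1571452 in the Unop nerves. Adipocyte markers, at 53066 and 28768 in Unop nerves, were at most 1367 in a graft. The part of any of these cells in the chemokine differences was not tested.

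Among genes that act below the receptors, calls toward lower levels outnumbered those toward higher levels in PEG-fused PNAs. Of 36 signalling genes tested, which encode G proteins, kinases, arrestins and regulators of G protein signalling, 17 were lower and 3 higher in PEG-fused than in NC PNAs, beside 13.9% and 15.0% of all genes tested, with a median log2 fold change of -0.47. Lyn, a Src family kinase of myeloid cells, had a log2 fold change of -0.81 ± 0.08 (adjusted p = 0.000676). Its counts were 4251, 4233 and 4145 in PEG-fused PNAs, 7207, 7419 and 7503 in NC PNAs and 810.3 and 679 in Unop nerves. Ptk2b, the kinase Pyk2, had a log2 fold change of -1.59 ± 0.17 (adjusted p = 0.00082), and the cytokine receptor kinase Jak2 one of -0.78 ± 0.09 (adjusted p = 0.00121). The 3 higher genes were Gnai1 (log2 fold change 1.34 ± 0.22, adjusted p = 0.00365), Gnb1 (0.33 ± 0.09, adjusted p = 0.0223) and Rgs16 (0.66 ± 0.18, adjusted p = 0.0278). Relative to Unop nerves, 23 of the 36 were higher and 8 lower in PEG-fused PNAs, and 24 were higher and 9 lower in NC PNAs. Over all genes tested, 29.1% were higher and 28.6% lower in PEG-fused PNAs and 32.2% and 32.3% in NC PNAs. Of 10 further chemokine-like or chemokine-modifying genes, 6 were lower and none higher in PEG-fused than in NC PNAs. Ptafr, the receptor of platelet-activating factor, had a log2 fold change of -0.91 ± 0.10 (adjusted p = 0.000897). For Ccrl2, a nonsignalling receptor of chemerin, it was -1.02 ± 0.17 (adjusted p = 0.00343), and for Cd74, which also binds the cytokine MIF, -2.15 ± 0.37 (adjusted p = 0.00447).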

How the data were processed

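Poly(A)-enriched stranded libraries of the 8 nerves were sequenced, and the authors aligned the reads with TopHat2 to the rat genome (Rnor 6.0), counted them per gene with HTSeq and scaled them with DESeq2, as the methods and the submitters' processing notes give it; versions are not given in the sources used here. The deposited signal values are normalized read counts, made by the authors by dividing the counts by median-of-ratios size factors. After division by 1 constant per library, 100% of the values were whole reads within 0.001. Reads on genes ranged from 32472925 to 39959620 per library. The authors also deposited tables of their own fold changes, test statistics and p-values for each pair of groups, and these were not used.

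Genes with a normalized count of 10 or more in at least 2 libraries were tested (16478 of 22798 with a read) with limma 3.58.1 (trend) on log2(normalized count + 1), in 1 group-means fit of the 8 libraries with 1 contrast per comparison, two-sided. This scale understates changes of genes with low counts, and comparisons with Unop rest on 2 nerves and the spread shared by all groups. The study used DESeq2; it (1.42.0) and edgeR 4.0.16 (quasi-likelihood, TMM factors) were alternatives on the recovered reads. The other alternatives were no filter, a filter of 50, a pseudocount of 8, TMM rescaling, a robust fit, the 2 groups alone, a replicate block, a log2 fold change threshold of 1, each library left out in turn, and, chosen after seeing the data, leaving out NC 1 and NC 3. The limma procedure was tested on simulated counts with known changes before use. The changed genes there had higher mean counts and all genes shared the same small spread. That test therefore does not show how the procedure does on members with few reads or a wide spread. Same-numbered PEG-fused and NC PNAs had correlated deviations of 0.108, 0.109 and -0.05, and the numbers were not taken as pairs.

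The named genes are all members by axis, with full values for the 5 smallest adjusted p in each direction and the members of the main ligand-receptor axes, and the 3 smallest adjusted p in the signalling and chemokine-like lists. One member of the 52 is counted but not reported here by name. The members, axes and lists were chosen with earlier results of these data known. Symbols came from the deposited table, and Adrbk1, Adrbk2, Dock2, Cd79a, Pecam1, Myh4 and Myh1 of the lists had none. How reads shared by close paralogs (such as Ccl3 and Ccl4, Cxcl1 and Cxcl2, or copies of Ccl21) were assigned is not given, so their levels are uncertain. Promoters were taken from RefSeq (GRCr8), a different build from that of the counts, by symbol. Python 3.11.15, pandas 2.3.3, SciPy 1.17.1 and matplotlib 3.10.9 were used with R 4.3.3.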

Additional observations from a re-analysis of the deposited data

How the results depend on the processing

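The number of the 52 genes called moved from 33 to between 24 and 36 in PEG-fused against NC PNAs, from 41 to between 33 and 42 in PEG-fused PNAs against Unop nerves and from 45 to between 42 and 46 in NC PNAs against Unop nerves, over 19 alternatives each. Leaving out 1 library gave 26 to 34, 33 to 42 and 42 to 45 calls. The lowest count of 24 came from leaving out NC 1 and NC 3. With the replicate block, 31, 42 and 45 genes were called, edgeR called 34, 41 and 45, and DESeq2 called 36, 40 and 44. DESeq2 gave Ccl21 no adjusted p in any comparison. Of 119 gene calls over the comparisons, 93 held in every alternative followed gene by gene, and none changed direction. Of 37 gene results without a call, 11 were called in at least 1 of these alternatives. The stricter filter, the fold change threshold and the fit without NC 1 and NC 3 were not followed gene by gene and do not enter these numbers.

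Direction changed only in genes that were not called. Against Unop nerves, PEG-fused PNAs had a log2 fold change for Ccl19 of 0.0514 with edgeR and 0.0375 with DESeq2, beside -0.56, and for Cxcl14 of 0.0361 and 0.0189, beside -0.03. When 1 library was left out, the log2 fold change between grafts ran from -0.60 to 0.42 for Ackr2, from -0.13 to 0.00147 for Ackr3, from -0.0380 to 1.23 for Ccl9, from -0.43 to 0.11 for Ccr1, from -0.30 to 0.41 for Cxcl14, from -1.41 to 0.12 for Cxcl6, from -0.0275 to 0.65 for Cxcr1 and from -0.42 to 0.22 for Cxcr4. For PEG-fused PNAs against Unop nerves it ran from -1.30 to 0.48 for Ccl19, from -0.0326 to 1.62 for Ccr3, from -0.0506 to 0.19 for Cx3cl1, from -0.26 to 0.77 for Cxcl13, from -0.30 to 0.29 for Cxcl14 and from -0.00834 to 1.12 for Cxcl17. For NC PNAs against Unop nerves it ran from -0.39 to 0.26 for Cxcl14. The cause of these changes was not tested. With 2 or 3 animals a group, genes of a few reads, such as Ccl1, Ccl20, Ccr4, Ccr8, Ccr9 and Xcl1 in Unop nerves, have no well-determined fold change.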
